A study of Dreissena polymorpha with 11 samples.

Results

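Larvae of the zebra mussel Dreissena polymorpha at 24 h after fertilisation were set against adult gill of the same species, with 3 of the series' 11 arrays. The larval side was larvae replicate 2, hybridised with RNA of untreated larvae, and the adult side was gill replicates 1 and 2, hybridised with RNA of untreated gills. The arrays were chosen by their labels. Larvae replicate 1 was left out, because the scanner software called 106 of its 13654 probes well above background, while the other 10 arrays had 4357 to 5631 such probes each. The comparison was therefore 1 array against 2.

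The zebra mussel is a freshwater bivalve with external fertilisation, whose embryos become free-swimming, ciliated larvae. The adult gill is a ciliated organ that moves water through the animal, captures food particles and exchanges gases. A whole larva holds every tissue it has formed at that stage, whereas a gill sample is 1 dissected organ. In such bulk samples, fewer cells of a type and less RNA per cell cannot be told apart.

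The labels give no age for the gill donors, and no count of animals for either side. They call both gill samples female in their source name, while the gender field gives female for replicate 1 and male for replicate 2. Nothing in the labels says that the 2 gill samples came from separate animals, so the spread between them may be technical. Labelling began from 200 ng of RNA for larvae and from 500 ng for tissues, and this difference and the stage cannot be told apart. Larvae replicate 2 and gill replicate 2 lay on slide 2, and gill replicate 1 lay alone on slide 3. The other 7 adult arrays, of digestive gland, male gonad, female gonad and halved bodies, served here as a frame for single sequences.

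Each array carried 13654 probes for 3541 mussel sequences, of which 3306 had 2 or more probes. In the files a sequence carries an identifier and no gene name, with RXR as the exception. None of the 3541 names matched a table of 51549 RefSeq genes of the species, so cell type markers of gill or larva could not be checked and no pathway could be described. Levels below are log2 signals relative to the 75th percentile of the array, taken over 3075 probes that were well above background on all 10 arrays. A level of 0 is thus a fairly bright signal, and the lowest signals called above background lay at -10.23 on larvae replicate 2, -10.38 on gill replicate 1 and -10.33 on gill replicate 2. Levels of different probes are not compared with each other.

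The arrays detected similar numbers of probes. On larvae replicate 2, 4398 probes (32.2%) were well above background, against 4357 (31.9%) on gill replicate 1 and 4453 (32.6%) on gill replicate 2. All 3 arrays shared 3417 of these probes, and 8018 probes were detected on none of the 3. Larvae replicate 2 alone of the 3 detected 639 probes, and both gill arrays without the larvae detected 396. These 2 counts are not alike, since 1 asks for detection on 1 array and the other on 2. A further 842 probes were detected on 1 gill array and not on the larvae. Array against array, 812 probes were detected on larvae replicate 2 and not on gill replicate 1, and 771 the other way. Against gill replicate 2 the counts were 808 and 863. Among those 639 probes, 283 were also detected on another adult array, and 356 were dark on all 9 adult arrays. Among those 396 probes, 357 were also detected on another adult array.

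By sequence, detection in larvae and in gill overlapped widely. With 2 or more probes required, 1146 sequences were detected on larvae replicate 2 and 1043 on both gill arrays, and 945 of them had 2 or more probes that were detected on all 3. There were 48 sequences with 2 or more probes on both gill arrays and none on larvae replicate 2, and 43 of these were also detected in other adult samples. The reverse count, of sequences on larvae replicate 2 and silent on both gill arrays, is not given here. Array against array, 60 sequences were seen on larvae replicate 2 and not on gill replicate 1, and 82 on that gill array and not on the larvae. Against gill replicate 2 the counts were 59 and 97.

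Over the 945 sequences detected on all 3 arrays, the larvae differed from gill more than the gill arrays differed from each other. The difference of larvae replicate 2 minus the mean of the gill arrays, taken as the median over a sequence's probes, had a median of 0.11 and quartiles of -0.47 and 0.60 on the log2 scale. Of these sequences, 72.0% lay within 1 log2 unit, 38 were at least 4-fold higher in larvae and 57 at least 4-fold lower. Array against array, the SD of the differences over sequences was 1.44 for larvae against gill replicate 1 and 1.34 for larvae against gill replicate 2. It was 0.96 for gill replicate 1 minus gill replicate 2, where 80.3% of sequences lay within 1 log2 unit. The gill arrays themselves still differed by at least 4-fold in 19 sequences in 1 direction and 33 in the other. Probes of 1 sequence gave close differences, with a median SD of 0.22 log2 units among them.

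**Figure D1:**
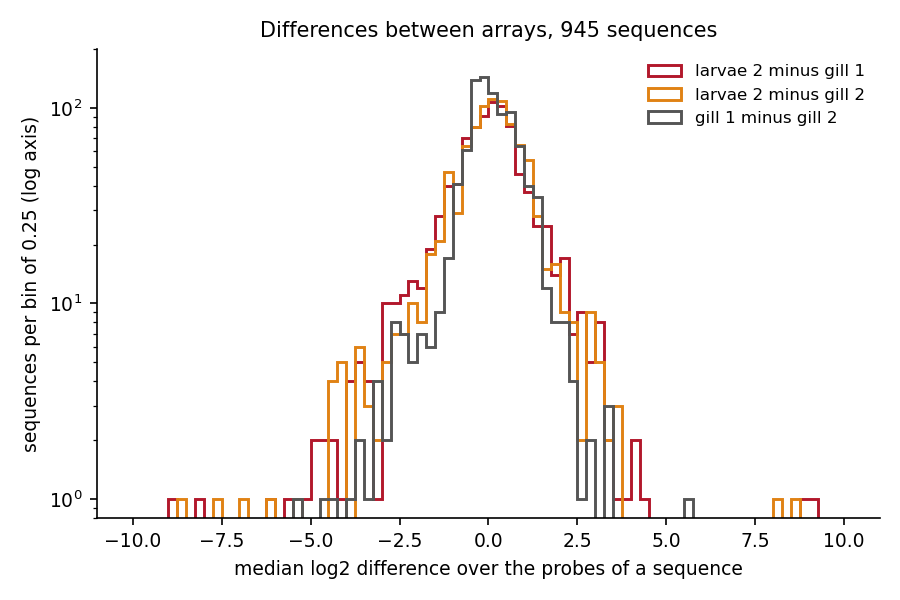
Histogram of log2 differences (horizontal axis) over the 945 sequences with 2 or more probes well above background on all 3 arrays, with the number of sequences on a log vertical axis. The lines for larvae replicate 2 minus gill replicate 1 (SD 1.44) and minus gill replicate 2 (SD 1.34) are wider than the line for gill replicate 1 minus gill replicate 2 (SD 0.96).

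Across the 3075 probes detected on all 10 arrays, the correlation of larvae with gill overlapped the range of their correlations with other adult tissues. Pearson's r with larvae replicate 2 was 0.924 for gill replicate 2 and 0.908 for gill replicate 1, and it ran between 0.893 and 0.916 for the other 7 adult arrays. The gill arrays had r = 0.955 with each other. With the other 7 adult arrays, r ran between 0.911 and 0.925 for gill replicate 1 and between 0.910 and 0.945 for gill replicate 2. Such correlations run over probes, which are not independent of each other, and they share the array design and its range of brightness.

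A fold of 4 against each gill array was then used to name sequences that stood apart, with 2 or more agreeing probes and none in the opposite direction. Where a probe was not well above background, the higher of its own value and the lowest detected level of that array was used, so such a difference is a bound. Of 1534 sequences with enough probes, 60 were higher in larvae (3.91% of those examined) and 71 were lower (4.63%). These are counts past a fold with no test, because the larvae had 1 array. The same fold applied between the gill arrays gave 49 sequences above in gill replicate 1 and 56 above in gill replicate 2, of 1349 with enough probes. That rule is looser, since it asks for a difference against 1 array instead of 2. Larvae replicate 2 against gill replicate 2 alone, within slide 2, gave 73 higher and 97 lower of 1410, and against gill replicate 1 alone 91 higher and 130 lower of 1379. Both counts thus moved by over 1.5 times without gill replicate 2.

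**Figure D2:**
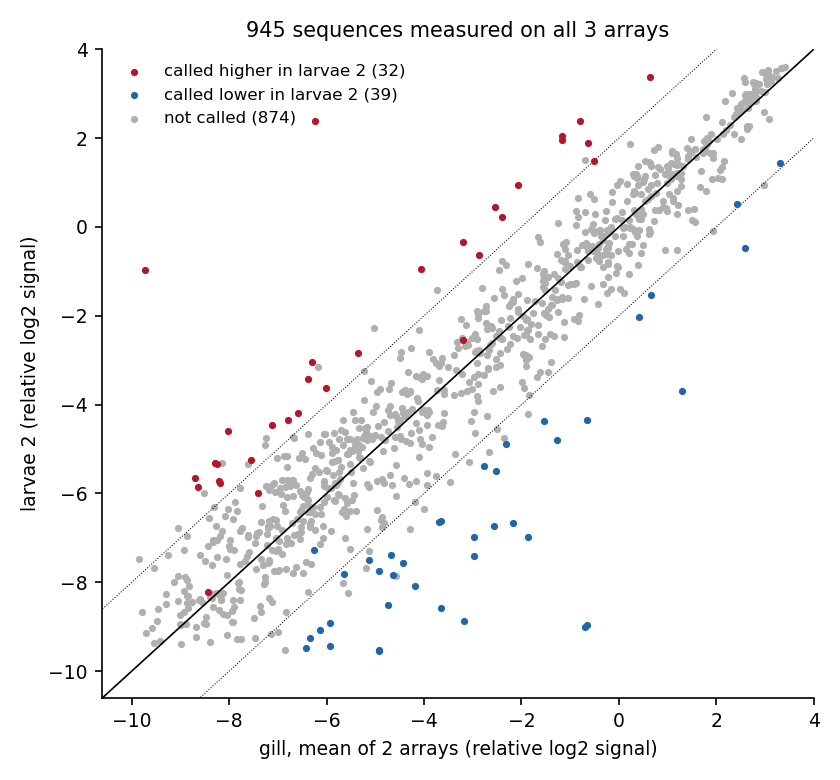
Level on larvae replicate 2 (vertical axis) against the mean of the gill arrays (horizontal axis), both log2 relative to the array's 75th percentile, for the 945 sequences with 2 or more probes detected on all 3 arrays. Solid and dotted lines mark equal levels and 4-fold differences, and 32 of these sequences were called higher in larvae and 39 lower. Some of these lie inside the dotted lines because each point is a median over the probes detected on all 3 arrays, and the call can rest on other probes.

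The 60 sequences higher in larvae rested on 174 agreeing probes, of which 86 were detected on all 3 arrays and 88 gave a bound because gill was not well above background. Their probes detected on any of the 3 arrays numbered 216, and in 32 of the 60 sequences all of those agreed. In 28 sequences 2 or more agreeing probes were detected on all 3 arrays, and in 27 none was. Counting bounded probes at their bound, the median difference of these sequences had a median of 3.02 and ran between 2.07 and 8.85 on the log2 scale. It was at least 8-fold in 31 sequences and at least 32-fold in 11.

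The 71 sequences lower in larvae rested on 207 agreeing probes, of which 120 were detected on all 3 arrays. The 87 others gave a bound, because the larvae were not well above background there. The probes of these sequences detected on any of the 3 arrays numbered 256, and in 39 of the 71 sequences all of those agreed. In 38 sequences 2 or more agreeing probes were detected on all 3 arrays, and in 25 none was. Their median differences had a median of -3.57 and ran between -9.54 and -2.25, reaching 8-fold in 49 sequences and 32-fold in 16.

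A single probe was often not joined by a second probe of its sequence, more so on the higher side. There, 358 probes passed the fold in 244 sequences, and in 184 of these sequences 1 probe stood alone, although in 87 it was the only probe bright enough to be judged. On the lower side 276 probes passed in 140 sequences, with 1 probe alone in 69, and in 11 of these it was the only probe bright enough. The sides are not alike by rule. A higher probe had to be well above background on the 1 larval array, and a lower probe on both gill arrays. Exactly 1 sequence had probes in both directions. Whether probes of 1 sequence overlap on it is unknown here. The design has 2 main probe sets, and 34 of the higher and 53 of the lower sequences had agreeing probes from both. Pairs of probes of 1 sequence differed with a median SD over 10 arrays of 0.29 between sets and 0.37 within a set. Agreement between sets may therefore not be independent. Within 1 set, 50 of the 60 higher and 50 of the 71 lower sequences had 2 or more agreeing probes.

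The largest difference on the higher side belonged to AM230114. Its 4 probes gave -1.32, -0.42, -0.98 and -1.06 on larvae replicate 2. The same probes gave -10.44, -9.53, -9.69 and -10.02 on gill replicate 1, and -10.18, -9.01, -9.74 and -9.80 on gill replicate 2. Larvae were far above gill on every probe, and the gill arrays lay close together near the bottom of their range, with 1 probe not well above background on gill replicate 1. The median difference over the 3 probes detected on all 3 arrays was 8.85 ± 0.06 (SD among probes), a fold of 462. That SD is a spread among probes on the same arrays and does not measure the spread between samples. In the deposited table the difference was 3.47. The other 7 adult arrays lay between 0.34 and 3.05 on these probes, all above the larvae, so gill was the low tissue for this sequence.

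AJ517568 came next. Its 3 probes, all detected on every array, gave 1.03, 2.44 and 2.38 on larvae replicate 2. They gave -8.33, -6.15 and -6.72 on gill replicate 1, and -7.27, -5.23 and -5.75 on gill replicate 2. The larvae again stood far above both gill arrays, which differed by about 1 log2 unit on each probe. The median difference was 8.62 ± 0.36 (SD among 3 probes), a 392-fold difference. The other adult arrays ran between -1.01 and 2.74, near the larvae and away from gill.

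On the lower side AJ517583 had the largest difference among probes detected on all 3 arrays. Differences known only as bounds reached further, to the -9.54 given above. Its 4 probes gave -9.01, -9.45, -8.15 and -9.95 on larvae replicate 2, with that last probe not well above background. They gave -1.07, -0.63, -0.02 and -0.90 on gill replicate 1, and -0.85, -0.78, 0.42 and -1.04 on gill replicate 2. The gill arrays lay close together on each probe, and the larvae lay far below them. The median difference over the 3 probes detected on all 3 arrays was -8.35 ± 0.35 (SD among probes), which is 326-fold lower in larvae. Here the other adult arrays, between -3.20 and 0.05, stood near gill, so the larvae were the low sample.

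AJ517619 came next by that measure, with less even probes. Its 5 probes gave -8.98, -9.23, -8.94, -10.18 and -8.82 on larvae replicate 2, where the probe at -10.18 was not well above background. They gave -2.24, 0.81, -0.72, -2.39 and 0.75 on gill replicate 1, and -1.89, -1.09, -1.55, -2.04 and -0.96 on gill replicate 2. All 5 probes were lower in larvae than on both gill arrays, and the median difference over 4 probes was -8.26 ± 0.97 (SD among probes), or 306-fold lower. Without gill replicate 1 it was -7.62, without gill replicate 2 it was -8.89, and in the deposited table it was -4.13. Its probes split widely on 1 array. On digestive gland replicate 1 the probes that read -2.24 and -2.39 on gill replicate 1 gave -10.18 and -10.01. The probes that read 0.81 and 0.75 on gill replicate 1 gave -2.62 and -2.59 there. Digestive gland replicate 2 did not repeat that gap, with -5.85 and -5.98 for the first pair of probes and -4.68 and -4.70 for the other.

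**Figure D3:**
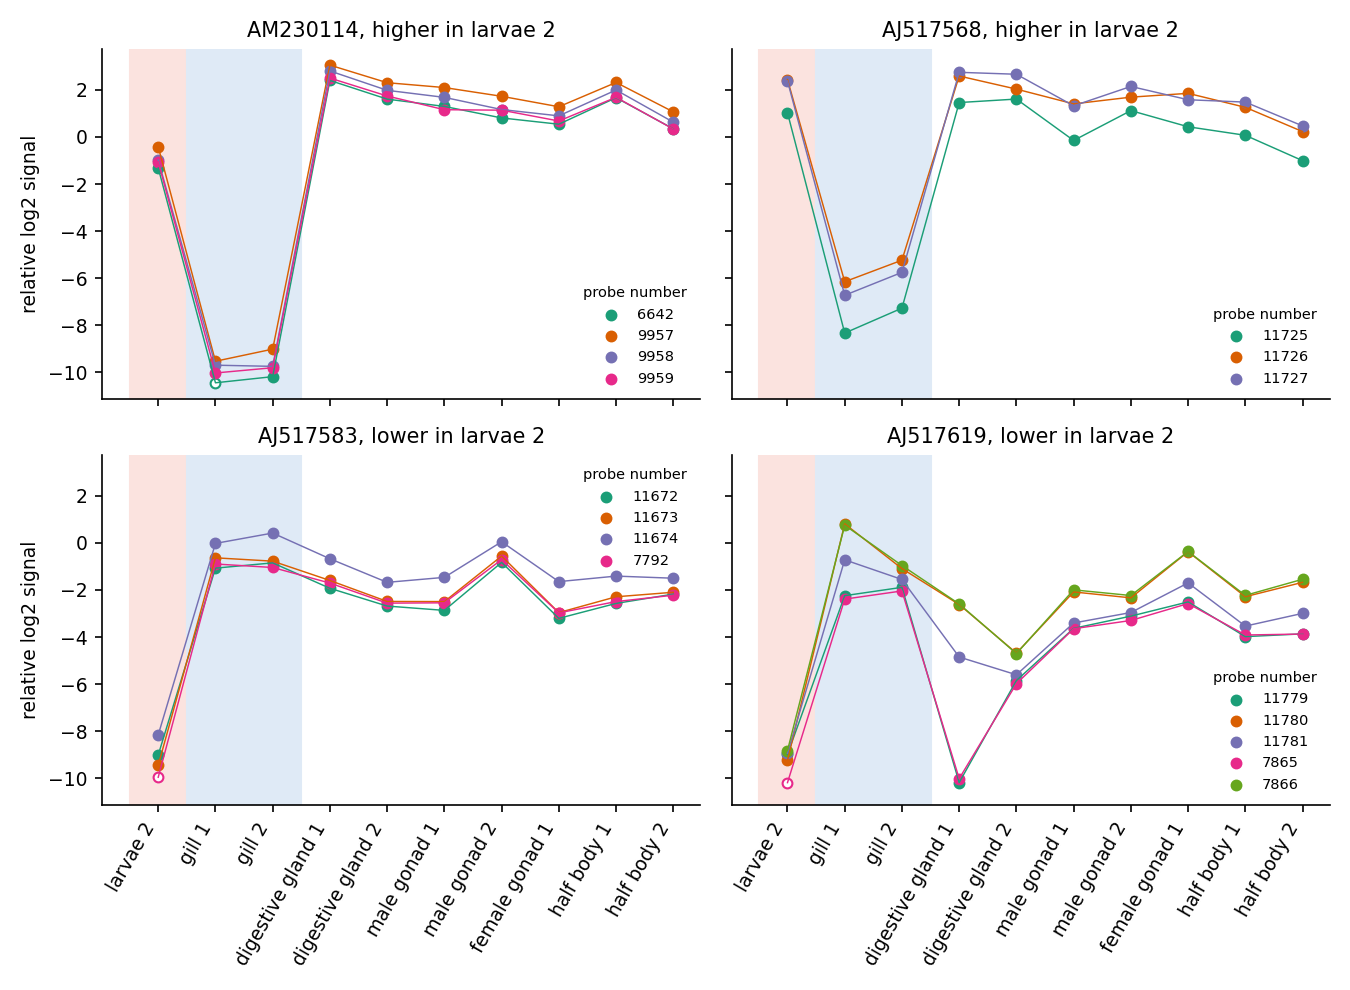
Level of every probe (log2 relative to the array's 75th percentile, vertical axis) on larvae replicate 2, the gill arrays and the other 7 adult arrays (horizontal axis) for AM230114, AJ517568, AJ517583 and AJ517619, with 1 line per probe and open circles where a probe was not well above background. Gill is the low tissue for AM230114 and AJ517568, and larvae are the low sample for AJ517583. For AJ517619 the larvae lie far below gill, while 1 detected probe is lower still on digestive gland replicate 1.

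RXR, the retinoid X receptor, is a nuclear receptor that binds DNA with other nuclear receptors as partners. It had 6 probes and was near background on all 3 arrays. On larvae replicate 2, 2 of them were well above background, at -9.99 and -8.53. On gill replicate 1, 1 of them was, at -9.60, and on gill replicate 2 another 1, at -8.17. None of its probes passed the fold, and the limma adjusted p of its probes ran between 0.249 and 1. At these signals a difference in RXR between larvae and gill was not detectable.

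A model across all probes gave the comparison a test, on the assumption that the lone larval array varied as arrays of the other groups did. It was fitted with limma to the 10 arrays by group, and it borrowed the spread between gill, digestive gland, male gonad and body arrays. The 2 body samples are labelled 1 female and 1 male, so that a difference between the sexes counts there as spread. Of 5913 probes tested, 476 (8.05%) had an adjusted p under 0.05, 345 of them higher in larvae and 131 lower. With 2 or more such probes required, 30 sequences were higher and 33 were lower. Which direction held more probes depended on the probe filter. The main fit took probes that were well above background on all used arrays of at least 1 group. The larval group had 1 array, so detection there alone let a probe in, and such probes tended to be high in larvae by that choice. Under a stricter filter, which asked for both gill arrays or for larvae replicate 2 and an adult array, more probes were lower than higher. Without a filter more were higher. The standard error of the difference had a median of 0.84 log2 units in the main fit. With either gill array left out, 0 probes were called by limma, although 1159 without gill replicate 1 and 1221 without gill replicate 2 had an unadjusted p under 0.05. The median differences of the sequences named above stayed large there, between 8.74 and 8.96 for AM230114 and between -8.57 and -8.13 for AJ517583. They lay between 8.13 and 9.10 for AJ517568 and between -8.89 and -7.62 for AJ517619. A fit with the slide as a block takes its difference from larvae replicate 2 and gill replicate 2 only, since gill replicate 1 lay alone on its slide. With the slide as a block 49 probes were called, 46 higher and 3 lower.

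Of the sequences past the fold, 22 of the 60 higher and 29 of the 71 lower had 2 or more agreeing probes that limma also called. All 4 probes of AM230114 had a limma adjusted p of 0.00903, and the 3 probes of AJ517568 had between 0.00903 and 0.01. The 4 probes of AJ517583 had between 0.01 and 0.0129. For AJ517619, 4 of 5 probes were called by limma, and the remaining probe had an adjusted p of 0.066. Over the 13 other settings of the fit, 2 or more probes were called in 9 settings for AM230114, in 7 each for AJ517568 and AJ517583, and in 6 for AJ517619. The highest limma adjusted p that a probe reached there was 0.832 for AM230114 and 0.665 for AJ517619, and it was 0.651 for AJ517568 and AJ517583. The fitted differences kept their sign in all of them. All of these sequences were picked for a large gap between the same 3 arrays, so limma calls among them are not separate support. The fit as a whole covered 1618 sequences with 2 or more probes tested.

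Set among the other adult samples, the sequences higher in larvae fell into different kinds. In 38 of the 60, larvae replicate 2 lay above all 9 adult arrays, in 20 of them by at least 4-fold. The rule had already placed larvae above both gill arrays, and the same count over all examined sequences is not given here. In 20 of the 60, both gill arrays lay below all 8 other arrays, in 15 of them by at least 4-fold. Both held in 3 sequences and neither in 5. All 7 other adult arrays were nearer gill in 29 sequences and nearer larvae in 16, and they were split in 15. That order depended on the scaling, with 14 nearer gill and 15 nearer larvae when arrays were set to their median, and 8 and 14 without scaling. In the main scaling AM230114 and AJ517568 were among the 16. The agreeing probes of these sequences were well above background for 54.6% on gill replicate 1 and 56.9% on gill replicate 2, against 82.2% to 92.5% on the other adult arrays. Low detection on gill follows in part from the rule, which asked for gill to lie 4-fold below larvae and set no condition on the other adult arrays.

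The sequences lower in larvae were placed in the same way. In 42 of the 71, larvae replicate 2 lay below all 9 adult arrays, in 19 of them by at least 4-fold. In 33, both gill arrays lay above all 8 other arrays, in 10 of them by at least 4-fold, and both held in 8 sequences. All 7 other adult arrays were nearer larvae in 13 sequences and nearer gill in 20, and they were split in 38. This order also turned with the setting. It was 34 nearer larvae and 24 nearer gill without gill replicate 2, 24 and 23 without gill replicate 1, and 12 and 4 in the deposited table. It was 6 and 32 with arrays set to their median. In the main scaling AJ517583 was among the 20 and AJ517619 among the 38. Single arrays ranged between male gonad replicate 2, nearer larvae in 36.6% of these sequences, and male gonad replicate 1, nearer larvae in 56.3%, so replicates of 1 tissue differed here too. The positions in both sets follow from the choice of sequences in part, since larvae and gill had to differ, and no test was made of them. The same counts over all examined sequences are not given here.

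**Figure D4:**
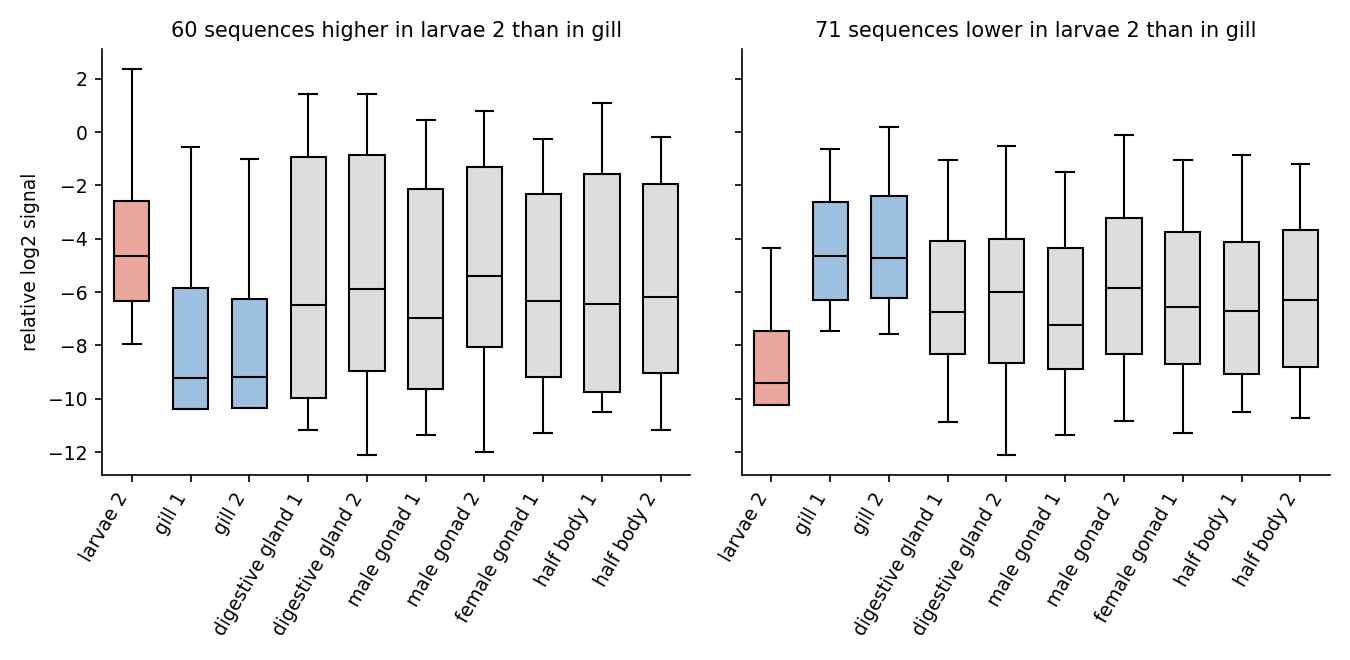
Levels (log2 relative to the array's 75th percentile, vertical axis) of the 60 sequences higher and the 71 lower in larvae than in gill, on larvae replicate 2, the gill arrays and the other 7 adult arrays (horizontal axis). Boxes give quartiles over sequences and whiskers run between percentiles 5 and 95, with probes not well above background raised to the array's lowest detected level where they lay under it. In the higher set the medians are -4.66 on larvae replicate 2 and -9.21 and -9.20 on the gill arrays, and in the lower set -9.42 on larvae replicate 2 and -4.66 and -4.70 on the gill arrays, with the other adult medians in between in both sets.

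The identifiers fall into series by their first letters, which say how a sequence entered the databases and nothing about its function. Of 1261 sequences with an EY identifier and enough probes, 42 (3.33%) were higher in larvae and 56 (4.44%) lower. Of 100 with an AJ identifier, 6 (6%) were higher and 9 (9%) lower, and 3 of the 4 sequences described above carry such identifiers. Of 138 with an AM identifier, 8 (5.80%) were higher and 5 (3.62%) lower, and of the 35 others, 4 (11.4%) were higher and 1 lower. The 3 smaller series hold few sequences, and the difference between them was not tested.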

How the data were processed

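Per the file headers, Agilent Feature Extraction 10.5.1.1 made the deposited scanner intensity values, with background subtracted and arrays not scaled to each other. The authors also deposited a table of log2 values whose scaling and centring are not given in the sources used here. Its columns had r = 0.987 (larvae 2), 0.579 (gill 1) and 0.989 (gill 2) with the scanner values and medians of 3.14, 4.33 and 3.14, so it served as an alternative.

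Control and outlier-flagged spots were left out, log2 processed signals were scaled to the array's 75th percentile, and spots of 1 probe were averaged. A probe was detected if over 0.5 of its spots were well above background. Limma 3.58.1 in R 4.3.3 fitted group means to 10 arrays with Benjamini-Hochberg adjustment, and was tested on simulated data. The background alternative used median signals. The median larvae-minus-gill difference was 0.09 in the main scaling and 0.62 in the deposited table.

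The arrays, lists and rules were chosen with earlier results of these data known. The rule named RXR and, per direction, the 2 called sequences with the largest median difference over probes detected on all 3 arrays. The number of arrays limits the precision.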

Additional observations from a re-analysis of the deposited data

How the results depend on the processing

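Both directions of the fold comparison kept sequences under every setting tried. Higher and lower sequences numbered 147 and 149 at 1 log2 unit, and 22 and 33 at 3. They numbered 30 and 39 with normexp background correction, and 28 and 38 with probes detected on all 3 arrays. With 3 agreeing probes they were 30 and 36. They were 51 and 59 where most of a sequence's probes detected on any of the 3 arrays had to agree. Without a floor 91 and 94 were called. Without scaling the split was 29 and 90, and from the values the authors deposited it was 51 and 33, of which 28 and 30 were also called in the main setting. Leaving out 1 gill array gave between 73 and 91 higher and between 97 and 130 lower. No sequence called in the main setting turned to the other direction under the other scalings. For scalings that shift a whole array this outcome was nearly fixed. There the median difference over probes detected on all 3 arrays ran only between -0.43 without scaling and 0.09 with the percentile over all probes.

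Limma called 60 probes with the percentile over all probes (7 sequences higher, 5 lower), and 31 with normexp (6 and 1). It called 49 with the slide as a block (5 and 0) and 18 with all 11 arrays (4 and 0). Without the probe filter 300 were called (16 sequences lower), and with a stricter filter 199, 87 higher and 112 lower (18 sequences higher). At an adjusted p of 0.01 there were 20 (4 and 0). There were 0 with the deposited table, and 0 with the larvae and gill arrays alone, where 1157 probes had an unadjusted p under 0.05. Leaving out 1 gill array gave between 0 and 0 probes and sequences.

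For AM230114, AJ517568, AJ517583 and AJ517619 the median difference kept its sign under the 10 settings in which it was recomputed. In 1 of these, without a floor, the value could not change, because the probes used were detected on all 3 arrays. Scalings that shift a whole array could move the value but hardly turn its sign at differences of this size. With normexp it was 7.26, 8.20, -6.84 and -6.85 in that order of sequences, and from the values the authors deposited it was 3.47, 7.90, -6.77 and -4.13. Among sequences lower in larvae, those with all other adult arrays nearer larvae or nearer gill also numbered 15 and 14 with the percentile over all probes, 15 and 13 with quantile normalization, 8 and 10 with normexp, and 9 and 37 without scaling. The causes were not tested. No paired analysis was possible because the larvae keep 1 array, so larvae and gill share fewer than 2 replicate numbers.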

Other observations

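Probes detected on a single array of the 10 were most numerous on larvae replicate 2, with 356, against 194 on gill replicate 2 and 139 on gill replicate 1. The other adult arrays had between 38 and 211. The larval ones were dim, with a median signal of 38.7, and they reached 2 or more probes in 16 sequences. Other probes of the same sequences were detected on larvae replicate 2 in 16% of 1120 cases. Of the spots of these larval probes, 37.2% lay in the 4 fullest of 32 blocks of the array, which hold 12.7% of all spots. On gill replicate 2 the share was 53.8% in blocks that hold 12.6%. The part of position on the array in these detections was not tested.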
